A study of Caenorhabditis elegans with 46 samples.

Results

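DRM sites that lay in the promoter of a single gene, outside regions crowded with other transcription factors, numbered 484 of the 1418 sites in the study's list of high-confidence DRM binding. Members were taken from that list by location alone. A member carried no mark for an embryonic HOT region, which is a stretch of DNA where many unrelated factors are found together, and was assigned to a gene as a promoter site and to no bidirectional promoter, which serves a pair of divergent genes. The 484 sites were assigned to 477 genes, each site spanned 500 bp of the ce10 genome build, and the promoter reached from 1000 bp upstream to 100 bp downstream of a start site. Since every DRM site needed wild-type peaks of DPL-1, EFL-1, LIN-35 and 3 or 4 MuvB subunits to enter the list, the presence of wild-type peaks at the members is part of how they were chosen. Whether a *lin-35* null peak was there, and how high any peak was, played no part in the rule, although earlier results of these data were known when it was set.

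ChIP-seq sequences the DNA fragments that come down with an antibody to a chromatin protein, and a peak is a place where they are more frequent than in the input. All samples were late embryos of *C. elegans*, aged for up to 3.5 hours after their release from adults by bleach. Wild-type (N2) cultures grew for 72 hours and *lin-35(n745)* cultures for 96 hours, and n745 is a null allele that leaves no LIN-35 protein. The series held 46 libraries. For wild type, the subunits LIN-54, LIN-52, LIN-9, EFL-1 and DPL-1 had 3 libraries each, LIN-35 had 2 and LIN-37 had 1. For *lin-35* null, each subunit but LIN-35 had 3 libraries, and 2 LIN-35 libraries served as a negative control without a peak list. Of the 18 wild-type ChIP libraries, 12 were made by an older, gel-selected protocol and 6 with the newer kit, which was used for all *lin-35* null libraries, and growth time differed between all libraries of the 2 genotypes. Since the lists pool the libraries of both protocols, genotype, growth time and library protocol cannot be told apart in them. Each subunit and genotype had a single peak list over all of its replicates, so 13 lists were compared, none of the values below has a replicate error, and no test was run. The paper describes a *lin-35* null replicate whose signal appeared abnormally raised beside the others. The *lin-35* null lists pool that replicate with the rest. How far the counts of kept, lost and retained sites below rest on it was not tested.

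DRM is the worm counterpart of the mammalian DREAM complex, which represses cell cycle genes in cells that have stopped dividing. It joins the E2F-DP heterodimer (EFL-1 and DPL-1), the pocket protein LIN-35, which is the only relative of Rb, p107 and p130 in *C. elegans*, and MuvB, of which LIN-54, LIN-52, LIN-37 and LIN-9 were measured. E2F-DP and LIN-54 touch DNA directly, at sequence elements named CDE and CHR, and the pocket protein links E2F-DP to MuvB. The question behind the comparison of genotypes was what remains of each component on chromatin once that link is gone.

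In wild type, peaks of all 7 subunits overlapped 464 of the 484 members (95.9%), against 94.9% of all DRM sites. The other 20 members had 6 of the 7, the lowest number that the site list admits, and could lack only a MuvB subunit. LIN-37 was the missing subunit at 16 of these 20, LIN-52 at 2, and LIN-9 and LIN-54 at 1 each. These 20 sites were low, with a median mean percentile of 27.5, where a percentile ranks the authors' signal value of a peak within its own list, the highest peak of a list being 100. Over all members the median wild-type percentile was 62.5 for DPL-1, 67.6 for EFL-1, 70.1 for LIN-35, 67.8 for LIN-9, 71.4 for LIN-52, 70.1 for LIN-37 and 71.5 for LIN-54. The mean over the subunits present had a median of 67.9 at members and of 65.8 over all DRM sites. The 7 lists ranked the members in much the same order, with a Spearman correlation between lists of 0.917 (EFL-1 with LIN-54) to 0.985 (DPL-1 with LIN-35) across sites, which are not independent samples. Summits also lay close together. The median distance to the LIN-35 summit was 3 bp for DPL-1, 4 bp for LIN-54, 6 bp for EFL-1 and LIN-52, 8 bp for LIN-9 and 10 bp for LIN-37. The direction of transcription was not used for these distances, since no strand was at hand.

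Without LIN-35, between 45.2% and 65.5% of the members kept a peak, depending on the subunit. LIN-9 peaks were found at 317 sites (65.5%), against 70% of all DRM sites, and LIN-52 peaks at 294 (60.7%), against 65.7%. LIN-54, the MuvB subunit that binds DNA, had peaks at 278 sites (57.4%; all DRM sites, 62.6%), and LIN-37 at 223 (46.1%; 52%). Of the E2F-DP pair, DPL-1 was found at 250 sites (51.7%; 56.6%) and EFL-1 at 219 (45.2%; 46.9%). For each of the 6 subunits the share at members was thus 1.65 to 5.97 percentage points under that of all DRM sites. The order of the subunits was that of the length of their *lin-35* null lists, which ran from 1674 peaks for LIN-9 through 1388 for LIN-52, 1225 for LIN-54, 995 for DPL-1 and 927 for LIN-37 to 783 for EFL-1. When each list was limited to its 783 highest peaks, the shares drew together, to between 41.7% for LIN-37 and 45.7% for LIN-54, and LIN-9 stood at 42.8%.

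**Figure D1:**
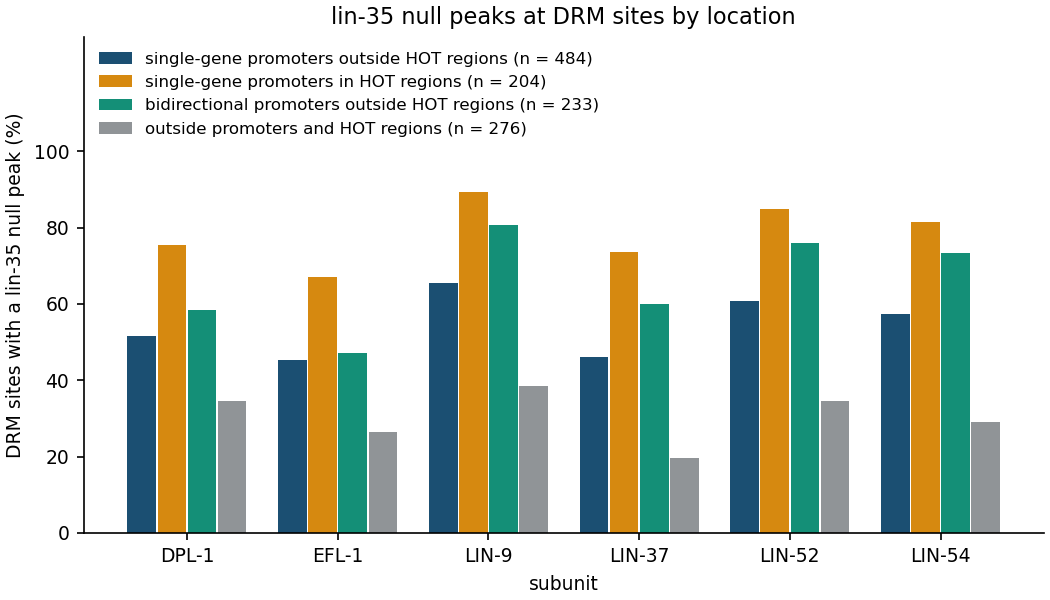
Share of DRM sites with a *lin-35* null peak (vertical axis, percent) for each of 6 subunits, with a bar for each location of the sites and the number of sites in the legend. Single-gene promoters outside HOT regions lie between 45.2% and 65.5%, below the other 2 kinds of promoter site and above sites outside promoters for every subunit.

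Peaks at a member tended to be kept or lost together. The complete set of 6 was still listed for *lin-35* null at 186 members (38.4%), against 40.6% of all DRM sites, and no subunit had a peak at 144 (29.8%), against 26.7%. The 154 sites in between (31.8%; all DRM sites, 32.7%) were spread over 1 to 5 subunits, with 22 to 39 sites for each number. Where a single subunit was left, it was LIN-9 at 13 of 23 sites, DPL-1 at 4, LIN-52 at 3, LIN-54 at 2 and EFL-1 at 1. Where a single subunit was missing, it was LIN-37 at 12 of 22 sites and EFL-1 at 10. With lists of equal length, sites that lacked a single subunit numbered 6 for LIN-37, 5 for EFL-1, 3 for DPL-1, 3 for LIN-52, 2 for LIN-9 and 0 for LIN-54. A site was counted as retained when it still had peaks of DPL-1, of EFL-1 and of 3 or 4 MuvB subunits in *lin-35* null. By that definition 198 of the 484 members (40.9%) were retained, against 43.4% of all DRM sites.

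MuvB without E2F-DP was seen at more members than E2F-DP without MuvB in the full lists, but not in lists of equal length. At 49 members (10.1%; all DRM sites, 9.8%) peaks of 3 or 4 MuvB subunits were listed in *lin-35* null while DPL-1 and EFL-1 were both missing. At 6 members (1.24%; all DRM sites, 0.987%) DPL-1 and EFL-1 were both listed and MuvB was missing. With lists of equal length these counts became 18 and 20, and the reason for the change was not tested. The 49 sites were low in wild type, with a median mean percentile of 41.4, whereas members without any *lin-35* null peak had a median of 52.4. An example was *nduf-7*, which encodes a subunit of mitochondrial complex I and whose site lay 890 bp upstream of its start. It stood at 16.7 for DPL-1, 14.4 for EFL-1, 29.8 for LIN-35, 40.3 for LIN-9, 28.6 for LIN-52, 31.1 for LIN-37 and 39.7 for LIN-54 in wild type. In *lin-35* null its MuvB peaks stood at 78.3 for LIN-9, 74.8 for LIN-52, 57.3 for LIN-37 and 66.6 for LIN-54, and no E2F-DP peak was listed. The 4 MuvB peaks of this site thus all ranked higher in the *lin-35* null lists than in the wild-type lists.

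The height of the wild-type peaks separated members that kept their peaks from members that lost them. Retained sites had a median mean wild-type percentile of 82.9, and the other members had a median of 54.2. With the members divided into 4 groups of 121 by wild-type percentile, 5 sites (4.13%) of the lowest group were retained, 31 (25.6%) of the second, 63 (52.1%) of the third and 99 (81.8%) of the highest. Sites without any *lin-35* null peak numbered 63, 51, 23 and 7 in the same order. The same was true of each subunit on its own. Wild-type DPL-1 peaks had a median percentile of 74.7 where a *lin-35* null DPL-1 peak was found and of 42.3 where none was. For EFL-1 these medians were 80.3 and 51.8, and for LIN-9 they were 76.2 and 54.5.

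**Figure D2:**
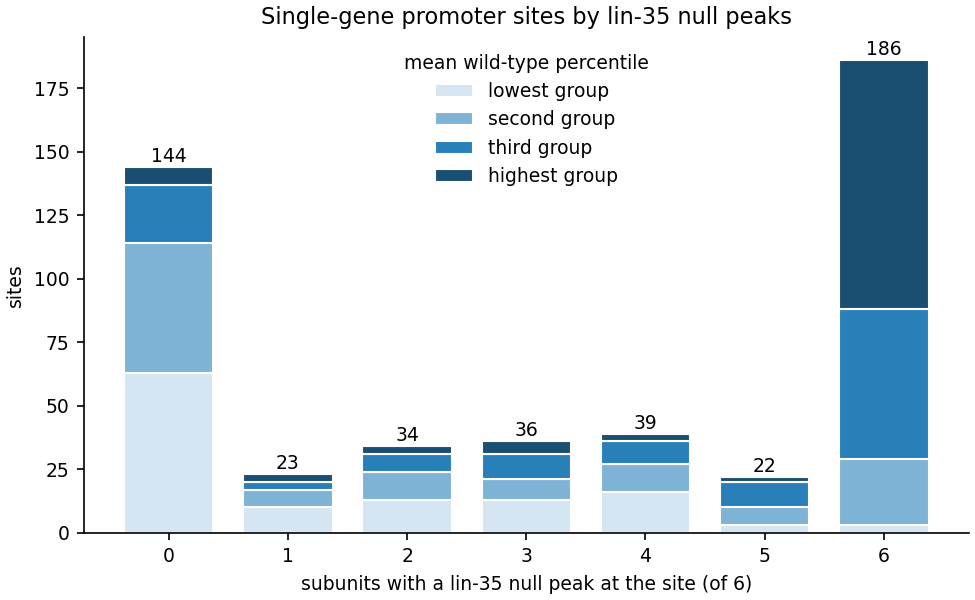
Number of members (vertical axis) by how many of 6 subunits had a *lin-35* null peak (horizontal axis), with bars divided by 4 groups of equal size by mean wild-type percentile. The 144 sites without a peak come mostly from the lower groups, and 98 of the 186 sites with all 6 from the highest.

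Among the 186 members with peaks in all 13 lists, the mean percentile over the 6 subunits was lower in *lin-35* null at 124 and higher at 62, with a median change of -7.10 percentile points. These are changes of percentile within lists of different length. For these subunits the *lin-35* null lists held 783 to 1674 peaks and the wild-type lists 1771 to 2290. A percentile can therefore fall where the place from the top of the list does not. The split and the median thus depend on list length, and they do not say how much protein was bound. Wild-type and *lin-35* null percentiles of the same subunit had a Spearman correlation of 0.458 (EFL-1, 219 sites) to 0.577 (LIN-9, 316 sites). In *lin-35* null the MuvB lists still ranked the members alike, at 0.971 to 0.980 between subunits, as did DPL-1 and EFL-1 with each other at 0.95. Between an E2F-DP and a MuvB subunit the correlation was 0.799 to 0.869. In wild type those same pairs had 0.917 to 0.967. The pairs do not share all of their sites between genotypes, and this difference was not tested.

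The largest rise in mean percentile was at ZC434.8, on chromosome I. Its wild-type peaks stood at 6.66 for DPL-1, 34.5 for EFL-1, 22.7 for LIN-35, 40.9 for LIN-9, 51.9 for LIN-52, 47.6 for LIN-37 and 45.6 for LIN-54. Its *lin-35* null peaks stood at 78.2 for DPL-1, 68.3 for EFL-1, 89.7 for LIN-9, 86.8 for LIN-52, 79.9 for LIN-37 and 77.9 for LIN-54, so the mean rose by 42.3 points and no list of one genotype overlapped the other. The next were Y55F3BR.7 (up 28.7 points), C08C3.4 (up 28.4) and Y54G9A.5 (up 22). C08C3.4 is now named *cyk-7*, a protein of the bridges between germ cells, and its site lay 29 bp upstream of the start. Its percentiles were 45.7 to 62.4 in the wild-type lists and 77.8 to 87.6 in the *lin-35* null lists.

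The largest fall was at W02B8.2, now named *citk-1*, a relative of the citron kinases that act in cytokinesis (chromosome II, 13908472 to 13908971). Its 7 wild-type peaks stood between 96.9 and 99.2. Its *lin-35* null peaks stood at 33.1 for DPL-1, 19.4 for EFL-1, 39.5 for LIN-9, 55.8 for LIN-52, 24.9 for LIN-37 and 50.9 for LIN-54. The mean over the 6 subunits fell by 60.5 points. F02A9.4 (-56.5 points), F09E5.9 (-53.2) and M4.1 (-52.4) came next, all from wild-type means of 84.7 or more. At these 3 sites *lin-35* null EFL-1 stood at 6.77, 16.3 and 23, DPL-1 at 11.9, 38.0 and 31.9, and LIN-37 at 20.6, 7.66 and 6.26. LIN-9, LIN-52 and LIN-54 stood between 39.8 and 63.4, but in longer lists (1225 to 1674 peaks, against 783 to 995). A percentile does not mark the same rank in lists of different length, so these values do not compare the subunits.

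**Figure D3:**
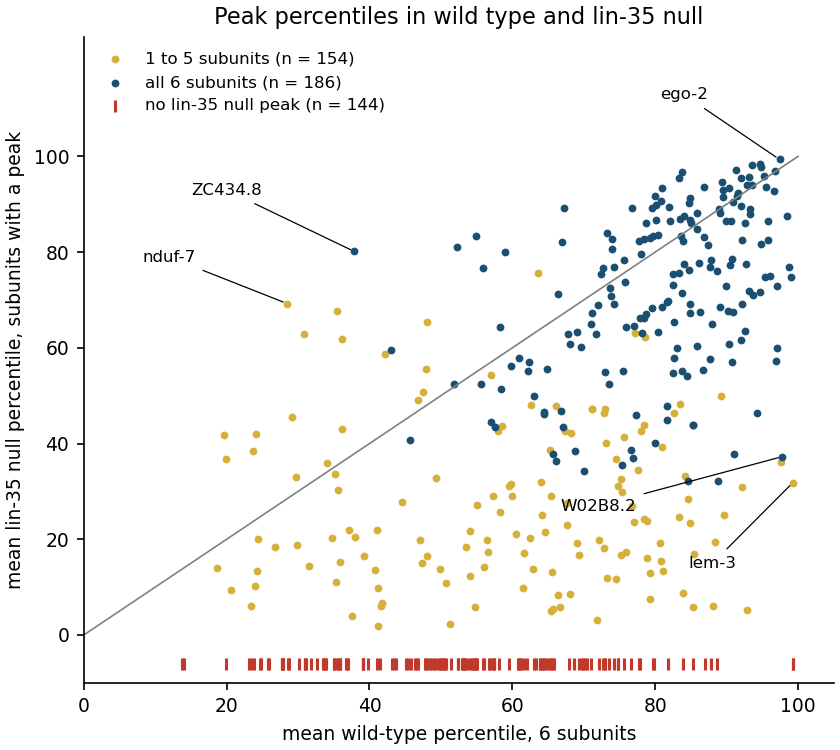
Mean percentile over 6 subunits in wild type (horizontal axis) against the mean over the subunits with a peak in *lin-35* null (vertical axis), a point for each member, with members that had no *lin-35* null peak as ticks below 0. The line marks equal percentiles. ZC434.8 sits far above the line, at 80.1 in *lin-35* null, and W02B8.2 and *lem-3* far below it, at 37.3 and 31.8.

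Some of the highest members in wild type lost most or all of their peaks. The pair with the highest mean percentiles, Y45G12C.16 (99.3) and C13B7.6 (99.3), had none in *lin-35* null. At Y45G12C.16 (chromosome V, 2529723 to 2530222) the wild-type peaks stood at 98.9 for DPL-1, 98.5 for EFL-1, 98.9 for LIN-35, 99.7 for LIN-9, 99.5 for LIN-52, 99.7 for LIN-37 and 99.8 for LIN-54. At C13B7.6 (chromosome V, 2421445 to 2421944) they stood at 99.0, 98.3, 99.0, 99.6, 99.5, 99.7 and 99.7 in the same order. The sites lay 108 kb apart, 174 bp and 173 bp upstream of their start sites. Both gene models span 1029 bp in RefSeq (WBcel235), and the table of current gene names gives the name C13B7.6 to both identifiers. Whether reads from one could be placed at the other was not tested, and the values of this pair are uncertain for that reason. Around them, the 6 *lin-35* null lists had no summit on chromosome V over 474 kb (between those at 2127194 and 2600719), a stretch that contained 7 DRM sites, these 2 members among them, with a median mean wild-type percentile of 37.7. By length this stretch ranked 19 of 6986 between neighbouring summits, the longest being 1193 kb, on X. By DRM sites it ranked 2, and a stretch of 8.35 kb on chromosome II also held 7.

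Next in wild type was *lem-3*, which encodes a LEM-domain nuclease that acts on DNA bridges, on chromosome I. It stood between 98.8 and 99.5 in all 7 wild-type lists. In *lin-35* null it had no E2F-DP peak, and its MuvB peaks stood at 54.1 for LIN-9, 25.1 for LIN-52, 1.29 for LIN-37 and 46.8 for LIN-54. The fourth and the fifth, *prx-19* (99.1), a peroxisome import factor, and *daf-15* (98.8), the worm Raptor of the TOR kinase complex, kept all 6 subunits. For *daf-15* the *lin-35* null peaks stood at 75.9 for DPL-1, 67.4 for EFL-1, 83.2 for LIN-9, 82.4 for LIN-52, 72.4 for LIN-37 and 79.6 for LIN-54, all below its wild-type range of 98.1 to 99.3. A further 5 sites of the highest group had no *lin-35* null peak, of which 3 were R102.5 (88.9), *usp-46* (88.2) and T20F5.3 (86.4). R102.5, now *allo-1*, encodes a receptor in the removal of paternal mitochondria, *usp-46* a deubiquitinase, and T20F5.3, now *mrrf-1*, a ribosome recycling factor of mitochondria. At *usp-46* the wild-type peaks ran from 84.5 (LIN-37) to 95.9 (EFL-1), and the nearest *lin-35* null peak was a LIN-54 peak 4648 bp from the middle of the site.

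At the other end, 3 members of the lowest group by wild-type height kept all 6 subunits. Besides ZC434.8 these were Y54G2A.12 and Y50D7A.4. Their wild-type mean percentiles were 42.2 and 43.1 over 7 subunits, and 45.7 and 43.1 over the 6 subunits with lists in both genotypes. Their *lin-35* null means over these 6 were 40.8 and 59.4. At Y50D7A.4 the MuvB subunits stood at 81.2 (LIN-9), 75.3 (LIN-52), 70.6 (LIN-54) and 68.2 (LIN-37) in *lin-35* null. DPL-1 stood at 43.2 and EFL-1 at 18.1, but in lists of other lengths, so these values do not compare the subunits. The lowest member of all was a site of *pars-2*, a prolyl-tRNA synthetase, with a wild-type mean percentile of 13, no LIN-37 peak in wild type and no *lin-35* null peak.

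Members lay close to the start of their genes. The distance was given for 483 sites, with a median of 221 bp upstream, and 467 of them (96.7%) lay upstream of the start. Within 250 bp upstream were 246 sites (50.9%). Wild-type peaks were higher near the start. The median mean percentile was 56.1 for the 99 sites more than 500 bp upstream, 67.1 for the 122 sites more than 250 and up to 500 bp upstream, 75.8 for the 165 sites more than 100 and up to 250 bp upstream, and 74.4 for the 81 sites 1 to 100 bp upstream. The 16 sites at or downstream of the start had a median of 64.2. The share of retained sites went from 25.3% in the most distant bin to 40.2%, 49.1% and 45.7% in the nearer ones, and was 37.5% at or downstream of the start. Among sites of like wild-type height the bins had no common order. In the highest of the 4 height groups the retained shares of the 4 upstream bins were 85.7%, 82.1%, 85.2% and 76.7%, from far to near, and in the third group 55.6%, 54.8%, 54.2% and 36.8%. In the second group they were 25%, 17.2%, 22.2% and 43.8%, and in the lowest 0%, 11.8%, 3.70% and 0%. Some of these bins held few sites, 7 being the lowest number. The members closest to the promoter limits were *eri-3* at 980 bp upstream, with a mean percentile of 40.4, and *par-1* at 97 bp downstream, with 55.9, and neither had a *lin-35* null peak. The nearest sites outside the upstream limit were those of *alh-1* and C34B4.5, both 1025 bp upstream, with 70.9 and 20.5 and no *lin-35* null peak either.

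**Figure D4:**
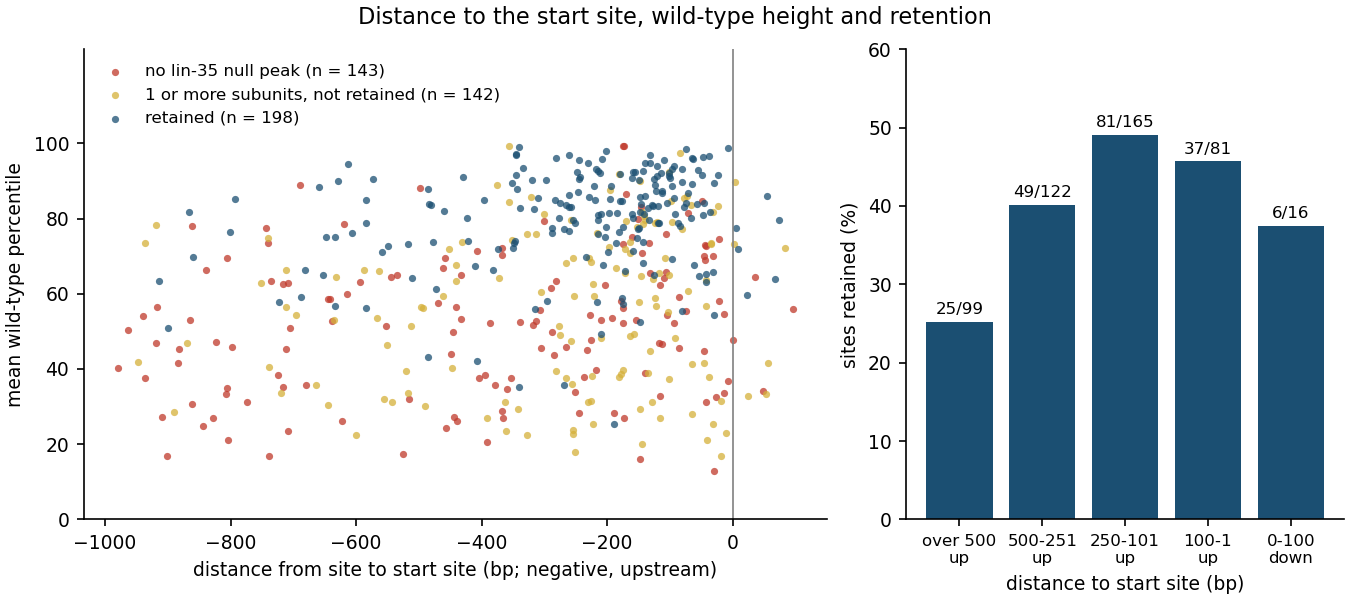
Left, mean wild-type percentile of each member (vertical axis) against its distance to the start site in bp (horizontal axis, negative upstream), coloured by what was left in *lin-35* null. Right, percent of members retained in each distance bin, with counts above the bars. Retention runs from 25.3% beyond 500 bp to 49.1% between 100 and 250 bp upstream.

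The site list marks a motif found de novo in the DRM sites and conserved matches to CDE, the element of E2F-DP, and to CHR, the element of LIN-54. Among members, 279 (57.6%) had the de novo mark, 198 (40.9%) the CDE mark and 301 (62.2%) the CHR mark, against 50.7%, 46.5% and 63.3% of all DRM sites. Sites with a mark were retained more often. With and without the CDE mark the retained share was 54% and 31.8%, with and without the de novo mark 47.7% and 31.7%, and with and without the CHR mark 45.2% and 33.9%. The 99 sites with all 3 marks had a median wild-type percentile of 83.0, and 64 of them (64.6%) were retained, whereas the 72 sites with no mark had a median of 54, and 19 (26.4%) were retained. Marked sites were thus also the higher ones in wild type. Within the highest of the 4 height groups, 90.9% of the 66 sites with the CDE mark and 70.9% of the 55 without it were retained. The shares with and without it were 56.1% and 48.4% in the third group, 26.7% and 25% in the second, and 10.0% and 2.20% in the lowest. For the de novo mark the shares with and without it were 79.8% of 104 and 94.1% of 17 sites in the highest group, 52.3% and 51.8% in the third, 26.3% and 25% in the second, and 1.89% and 5.88% in the lowest. For the CHR mark they were 81.5% and 82.8% in the highest group, 52.7% and 51.1% in the third, 26% and 25% in the second, and 4.84% and 3.39% in the lowest. The paper, with classes of differential binding over all DRM sites, reports that motif content was no predictor of stable binding without LIN-35. Retention here counts listed peaks, which is another measure. Sites with the CHR mark lay nearer the start, at a median of 181 bp upstream, than sites without it, at 315.5 bp. *mes-4* had the de novo and CDE marks, *rad-51* the CDE and CHR marks, and *dpl-1* all 3.

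None of these 3 genes, which the study followed further, had a retained site. The study took up *mes-4* and *rad-51* as genes without detected DRM subunits in *lin-35* null, so their losses here are a description of chosen genes. *mes-4* encodes a histone H3 lysine 36 methyltransferase of the germline. Its site, 102 bp upstream of the start, had a wild-type mean percentile of 65.0 (57.6 for DPL-1, 58.4 for EFL-1, 67.6 for LIN-35, 65.6 for LIN-9, 66.9 for LIN-52, 69.9 for LIN-37 and 69.1 for LIN-54). In *lin-35* null only LIN-9 (32.3), LIN-52 (8.79) and LIN-54 (23.3) had a peak there. The site thus counted among those with 3 or 4 MuvB subunits and no E2F-DP subunit. For MuvB at *mes-4* the lists therefore differ from the study's description, and the reason was not tested. *rad-51*, the recombinase of homologous repair, had a wild-type mean of 70.2, from 61.5 for DPL-1 to 77.9 for LIN-54, and no *lin-35* null peak. *dpl-1* encodes the DP subunit of the complex itself. It had a wild-type mean of 85.8, with EFL-1 highest at 92.4 and LIN-37 lowest at 79.3, and a single *lin-35* null peak, of LIN-9 at 23.3.

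The gene assigned to a site gave a further division. Lists by function, chosen by what the genes are known to do and with earlier results of these data in view, held 154 of the 477 genes and 158 sites, of which 66 (41.8%) were retained. The lists are not complete, and W02B8.2 (*citk-1*), at 98.0 in wild type, was in none. Counts, highest and lowest members below are thus those of the listed genes only. Where 2 means are given for a gene, the first is over the 7 wild-type lists and the second over the 6 *lin-35* null lists. Of the 326 sites in no list, 132 (40.5%) were retained, close to the share in the lists. Kinetochore, spindle and cytokinesis genes had 13 of 21 sites retained (61.9%) and a median wild-type percentile of 79.0. The highest of them were *rsa-2*, a centrosomal regulator of spindle assembly (94.9 in wild type, 71.6 without LIN-35), and *knl-2*, which loads the centromeric histone (93.9 and 94.1). The lowest was *rod-1*, a kinetochore checkpoint protein, at 55.0 in wild type and with a single *lin-35* null peak, of LIN-9 at 5.79. DNA replication and repair genes had 8 of 20 sites retained and 6 without any *lin-35* null peak, with a median of 75.5. Their range ran from *lem-3* and the nuclease *fan-1* (95.9 in wild type, 82.4 without LIN-35) to *rnh-2*, an RNase H, at 25.3.

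Chromatin and histone supply genes had 9 of 21 sites retained, with a median of 64.7. *emb-5*, the Spt6 elongation factor, stood at 96.9 in wild type. In *lin-35* null its E2F-DP peaks stood at 36.7 (DPL-1) and 35.6 (EFL-1) and its MuvB peaks at 79.5 (LIN-9), 57.1 (LIN-37), 77.7 (LIN-52) and 73.4 (LIN-54). The lists differ in length, so these values do not compare the subunits. *cdl-1*, which binds the stem-loop of histone mRNAs, had 92.7 and 63.4, and *athp-1*, a PHD finger protein, had 23.8 in wild type and 4 MuvB peaks in *lin-35* null. Nuclear envelope, pore and transport genes had 4 of 10 sites retained. Among them *npp-22*, the pore membrane protein NDC1, had much the same mean percentile in both genotypes (92.1 and 92.3). *npp-5*, the Nup107 of the pore scaffold, went from 93.3 to 71.0, and *emr-1*, emerin, stood at 26.9 with 2 MuvB peaks left.

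RNA polymerase II and mRNA processing genes had a median of 84.2 and 7 of 16 sites retained. *let-858*, a splicing factor of the CWC22 family, had among the highest ranks in both genotypes, at 93.5 to 95.8 in the wild-type lists and 96.4 to 99.0 in the *lin-35* null lists. *exos-2* of the RNA exosome went from 92.3 to 61.6, and *rpb-2*, the second largest polymerase subunit, had 27.2 and no *lin-35* null peak. Mitochondria and metabolism genes had 9 of 15 sites retained, led by *spg-7*, a mitochondrial protease (92.5 and 86.1), and *sod-1*, a superoxide dismutase (90.2 and 67.7). Secretory pathway and membrane traffic genes had 5 of 16 retained, with *sec-12*, an exchange factor for vesicle coats (96.1 and 86.5), and *vps-28* of the ESCRT-I complex (92.6 and 77.6) on top and *vha-19*, a proton pump subunit, lowest (22.5). Ubiquitin and proteasome genes had 3 of 7 retained, with the proteasome subunit *pas-5* at 93.4 and 72.0 and the conjugating enzyme *ubc-7* at 90.6 and 60.7. *rpn-6.1*, of the proteasome lid, was lowest, at 23.6.

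Signalling and developmental transcription factor genes lay at the low end, with 4 of 18 sites retained (22.2%), 10 of 18 without any *lin-35* null peak and a median wild-type percentile of 54.5. After *daf-15*, the highest was *gap-3*, a GTPase activator for Ras, at 78.9 in wild type, 83.0 without LIN-35, and the lowest was the Wnt ligand *lin-44*, at 24.3 with no *lin-35* null peak. Small RNA and germline genes had 2 of 7 sites retained, 4 of 7 without a *lin-35* null peak and a median of 46.9. The exception in height was *ego-2*, a BRO1-domain protein that acts with Notch in the germline. Its wild-type peaks stood between 96.3 and 98.0, and its *lin-35* null peaks at 98.8 for DPL-1, 98.5 for EFL-1, 99.8 for LIN-9, 99.6 for LIN-52, 99.7 for LIN-37 and 99.8 for LIN-54. *skr-17*, a Skp1 relative, had 65.0 and 46.5, and *daz-1*, an RNA-binding protein of oogenesis, had 28.2 and no *lin-35* null peak. Translation genes had 2 of 7 sites retained, those of the tRNA synthetases *vars-1* and *aars-2*. At *vars-1* the E2F-DP peaks kept their rank (91.9 for DPL-1 and 87.0 for EFL-1) while the MuvB peaks stood at 38.1 to 67.3, and at *aars-2* the mean rose from 76.8 to 89.2. These groups held 7 to 21 sites each and differed in wild-type height as well, and their differences were not tested.

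**Figure D5:**
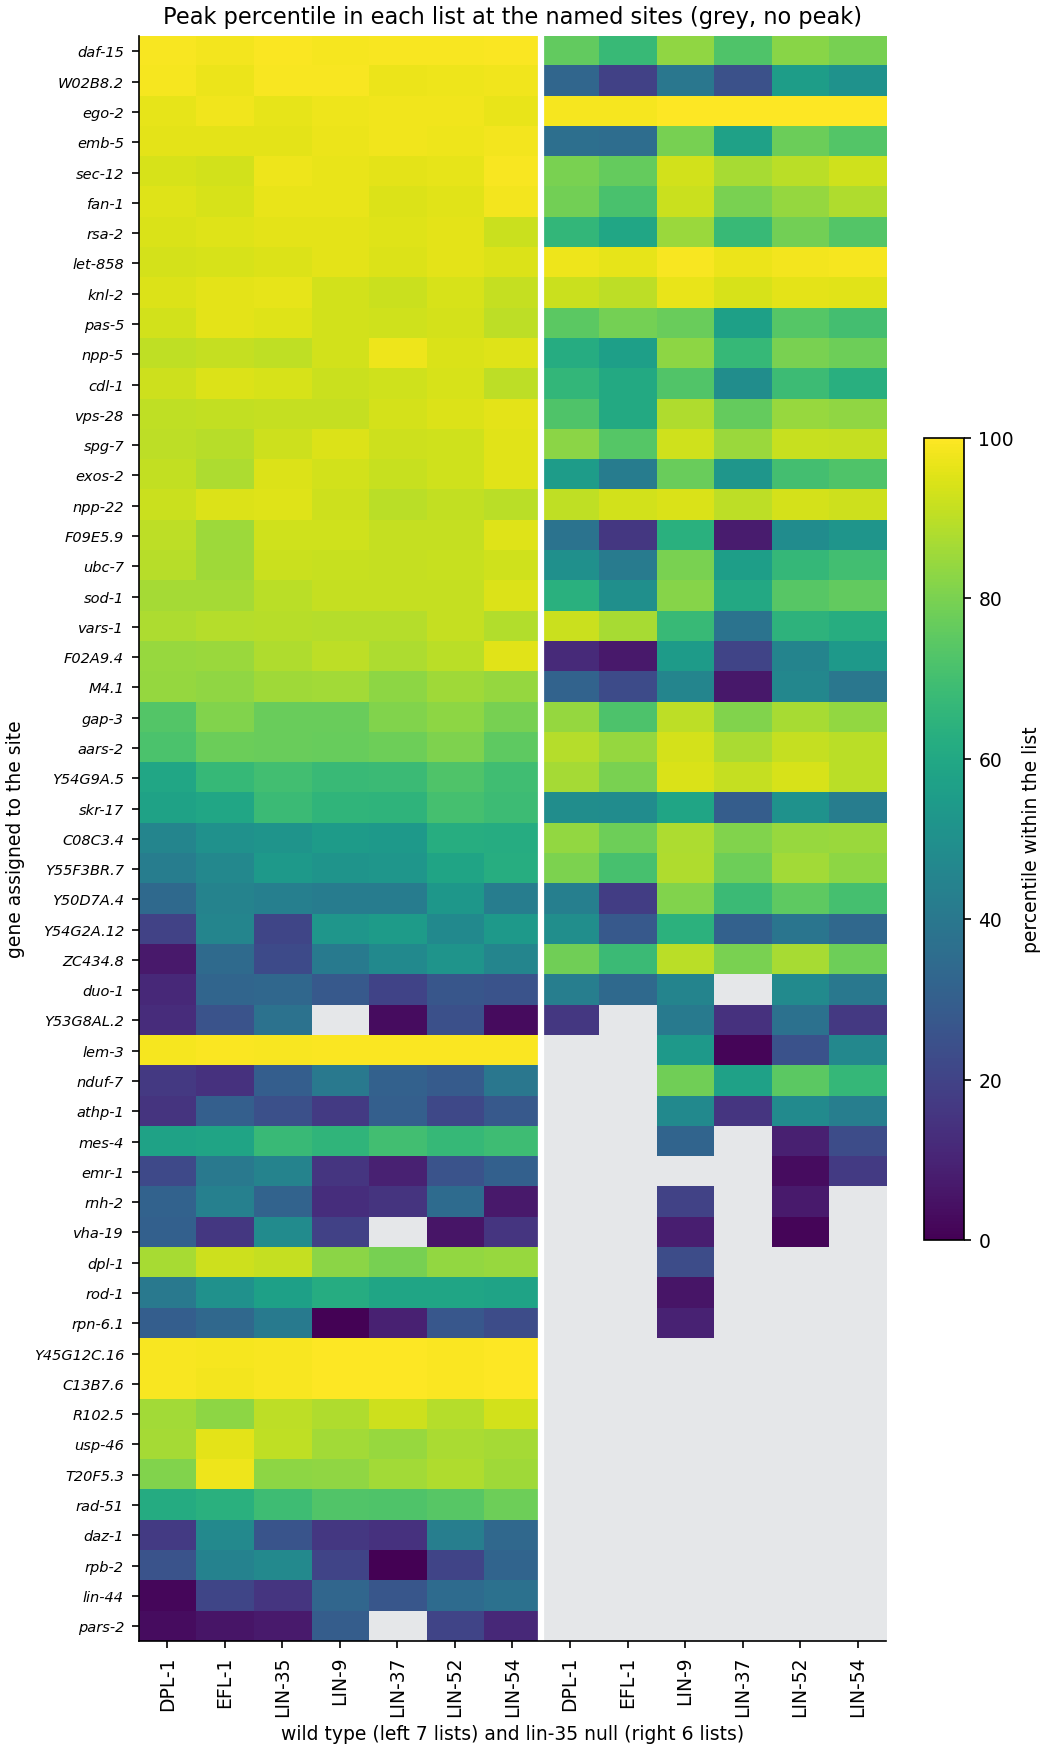
Percentile of the peak within its list (colour, 0 to 100; grey, no peak) at 53 named sites (rows, by gene) in the 7 wild-type lists and the 6 *lin-35* null lists (columns). Rows are ordered by the number of *lin-35* null peaks and then by wild-type height. 31 sites have all 6 *lin-35* null peaks and 10 have none, Y45G12C.16 and C13B7.6 among them.

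More than 1 member site was assigned to 6 genes. *pars-2* had 3 sites and T22C1.1, *eri-3*, K10D2.1, K08D10.12 and *ttb-1* had 2 each. Both sites of *eri-3*, a factor of the RNA interference machinery, were without *lin-35* null peaks (wild-type means 40.4 and 46.9). Of the sites of K08D10.12, now *tsen-34* of the tRNA splicing endonuclease, that at 59.2 kept all 6 subunits and that at 31.2 kept none. Neighbouring sites could share a peak. Of the members, 11 shared a wild-type peak and 10 a *lin-35* null peak with another DRM site when the highest peak was taken, and both sites of *ttb-1*, the general transcription factor TFIIB, had the same values (85.0 and 43.9) for that reason. With the peak nearest the middle of the site, they stood at 85.0 and 70.9 in the wild-type lists and at 42.9 and 30.6 in those of *lin-35* null. Only 19 members had another value in any list when the nearest peak was taken.

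By chromosome, fewest members were retained on X. Of the 20 members on X, 1 was retained (5.00%) and 14 (70.0%) had no *lin-35* null peak. On the autosomes 197 of 464 (42.5%) were retained, from 30 of 80 (37.5%) on V to 53 of 108 (49.1%) on III. The wild-type peaks of the X members were lower, with a median mean percentile of 60.3 against 69.5 on the autosomes. Over all DRM sites the retained share on X was 7.55% (4 of 53). These counts on X are small, and the difference was not tested.

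Beside sites in other locations, members were intermediate in wild-type height and in the share retained. Single-gene promoter sites in HOT regions were higher in wild type (median 81.2), and 132 of 204 (64.7%) were retained and 18 (8.82%) had no *lin-35* null peak. Bidirectional promoter sites outside HOT regions had a median of 72.2, with 100 of 233 (42.9%) retained, close to the 40.9% of members, but 40 (17.2%) without any *lin-35* null peak, below the 29.8% of members. They carried the CDE mark at 59.2% and the CHR mark at 74.7%, against 40.9% and 62.2% at members. The de novo mark was more frequent at members (57.6%) than at HOT single-gene promoter sites (51.5%), bidirectional promoter sites (48.1%) and sites outside promoters (54.7%). Sites outside promoters and HOT regions had a median of 51.3, with 63 of 276 (22.8%) retained and 158 (57.2%) without a *lin-35* null peak. The locations differed in wild-type height, and their differences in retention were not tested.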

How the data were processed

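The authors mapped ChIP-seq reads to ce10 with Bowtie 1.1.2, called SPP peaks relative to input, and filtered them by IDR at 1% over the replicates. For wild-type LIN-37 the labels map 1 library, and per the methods its list also draws on earlier libraries. Of the deposited lists, 13 were used, all with an SPP signal value for each peak, on a scale not given in the sources used here. Signals were turned into percentiles within each list (Python 3.11.15, numpy 2.4.6, scipy 1.17.1, matplotlib 3.10.9). The lists hold no counts or values of single replicates, so depth is unknown and no error or interval is given. A peak was assigned to a site when they overlapped by at least 1 bp, and the highest was taken. Site, HOT, motif and gene assignments are those of the study's site list, whose columns of fold changes, p-values and expression were not used. The distances in that list do not always equal differences of position, and 1 site has none. Members, lists and named genes were chosen with earlier results of these data known. Genes were named by rule: in each list the 2 highest and the lowest by mean wild-type percentile, the 5 highest and 5 lowest of all, the 5 highest without *lin-35* null peaks, the 5 lowest with the most, the 4 largest rises and falls, genes with several sites, *mes-4*, *rad-51* and *dpl-1*, and the sites at the promoter limits. No ce10 sequence or strand was used, so promoter sequences, motif searches and summit direction were not analysed here. Of 477 gene identifiers, 468 matched the table of current names. On simulated lists with 1500 sites, 125 of 125 retained sites were found. Overlap, peak width, list threshold, list length, HOT sites, the definition of retained and the peak taken were varied. Coverage tracks, inputs and LIN-35 ChIP in *lin-35* null were not analysed here.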

Additional observations from a re-analysis of the deposited data

How the results depend on the processing

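Of 107 alternative values over 22 results, 98 stayed within 1.5 times the share given, 5 bp or, for a difference, a sampling interval over sites, and 9 moved. Sites are not independent samples, so that interval was only a yardstick for change and not an error of the differences. With each list limited to 783 peaks, the share of members with a *lin-35* null LIN-9 peak was 42.8%, the share without any *lin-35* null peak 46.9%, that with at least 3 MuvB and no E2F-DP subunit 3.72%, that with both E2F-DP and no MuvB subunit 4.13%, and the retained share in the highest height group exceeded that in the lowest by 60.8 percentage points in place of 77.7. This alternative also left 158 members without a wild-type peak. With any 1 subunit counted as retained, 70.2% of members were retained, the difference between the highest and the lowest height group was 46.3 points, and sites with and without the mark differed by 2.55 points (de novo), 11 points (CDE) and 5.76 points (CHR) in place of 16, 22.2 and 11.3. No single value changed sign, but with lists of equal length 2 orders turned: MuvB without E2F-DP became less frequent than E2F-DP without MuvB (18 and 20 members), and LIN-9 went from the highest share of the subunits to one below DPL-1 (44.2%), EFL-1 (45.2%) and LIN-54 (45.7%). By the rule above, only the definition of retained and the length of the lists moved values, but other choices shifted values within it. Without the lowest 25% of each list, 40.3% of members had no *lin-35* null peak, in place of 29.8%. The share with a LIN-9 peak was then 56.0%, in place of 65.5%. With single-gene promoter sites in HOT regions also counted, 48.0% were retained, in place of 40.9%. Leaving out the X chromosome, added after the data were seen, gave 42.5% retained. A peak that is missing from a list may lie under its threshold, and replicate error, depth and absolute binding cannot be read from these lists. No paired analysis was possible because each subunit and genotype has a single list over all replicates. For the same reason, kept and lost sites could not be counted without the *lin-35* null replicate whose signal appeared raised.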
